A study of Homo sapiens with 7 samples.

Results

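Genes that mark the stem and progenitor cells of the intestinal crypt were examined for binding of GATA6, a zinc-finger DNA-binding factor of gut and other endodermal organs. The set comprised 10 loci, namely ASCL2, OLFM4, SMOC2, EPHB2, EPHB3, SOX9, PROM1, CD44, LRIG1 and ETS2, each taken as a fixed hg19 window of 200 to 500 kb, 3.24 Mb in all. A GATA6 peak belonged to a locus if its summit lay inside the window, which gave 35 of the 7568 peaks in the list. The windows were set by position and gene name and the rule uses no height or score, but the loci were chosen with earlier results of these data known, so the counts below are no independent evidence. Gene expression was not measured, so whether LS174T cells express these markers could not be checked here.

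The data came from chromatin immunoprecipitation followed by sequencing (ChIP-seq) in LS174T cells, a long-established line from a human colorectal carcinoma, grown in serum-containing medium with no further treatment named in the labels. GATA6 was precipitated in 3 of 7 libraries, and the others were 1 input library and 1 library each for H3K27ac, H3K4me3 and H3K4me1, which were not analysed here. The deposited file was 1 list of GATA6 peaks with no value per library. No value below therefore has a spread between replicates, the depth of the libraries is unknown, and all comparisons are descriptions without a test.

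Stem cells at the base of intestinal crypts divide under Wnt signals and give rise to the cells that climb the crypt wall. ASCL2 is a basic helix-loop-helix transcription factor that acts with Wnt signalling in these cells, and OLFM4 and SMOC2 encode secreted proteins used to recognise them. The Wnt-induced receptors EPHB2 and EPHB3 keep cells at their proper height in the crypt. SOX9, CD44, PROM1 and LRIG1 are found in stem cells and in a wider set of crypt cells, and ETS2 encodes a transcription factor of the ETS family. GATA factors recognise short DNA elements built around the letters GATA.

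No hg19 sequence was used here, so the bases under the peaks are not shown. Promoter sequences from RefSeq on GRCh38.p14 were used for a look at GATA letters near the start sites. Of the 10 genes, 8 matched with 16 promoters, some of which overlap each other, and ASCL2 and SOX9 had no entry. The 250 bases before each start site were searched on both strands for AGATAA. It was found in 1 of the 16, at ETS2, against 9.21% of 34788 promoters in the table. The ETS2 sequence is shown because that locus also had the most peaks. It lies at chr21:38804933-38805182 on the plus strand of GRCh38.p14, its capitals mark AGATAA, and the match begins 199 bases before the start site.

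ETS2: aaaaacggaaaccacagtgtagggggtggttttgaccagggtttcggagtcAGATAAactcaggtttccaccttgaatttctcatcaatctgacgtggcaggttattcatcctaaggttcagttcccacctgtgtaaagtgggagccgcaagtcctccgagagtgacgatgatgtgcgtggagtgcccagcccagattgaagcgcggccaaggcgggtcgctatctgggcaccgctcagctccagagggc

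The TCF/LEF letters ATCAAAG were found in 1 promoter of PROM1 (2.27% of all promoters in the table) and the AP-1 letters TGANTCA in 1 promoter each of OLFM4, PROM1 and LRIG1 (6.59% of all promoters). The FOXA letters TGTTTAC were in 0 of the 16, against 2.98% of all promoters. These are matches of letters and not binding sites. Peak positions are on hg19 and promoters on GRCh38, so whether a peak covers any of these promoters was not determined.

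All 10 windows held at least 1 GATA6 peak, and none was empty. For comparison, every window of the same width was counted along chromosomes 1 to 22 and X at steps of 10 kb. The share of such windows with at least 1 peak was 30.2% at 200 kb (ASCL2), 32.3% at 220 kb (EPHB3), 33.3% at 230 kb (OLFM4) and 38.8% at 290 kb (CD44). It was 41.3% at 320 kb (PROM1, LRIG1 and ETS2), 48.0% at 410 kb (EPHB2), 49.3% at 430 kb (SMOC2) and 53.5% at 500 kb (SOX9). Averaged over all positions, 10 windows of these widths would hold a peak in 4.09 cases. The compared windows include stretches with few genes, and windows centred on other genes were not compared.

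The 35 peaks came to 10.8 per Mb, against 2.61 per Mb over chromosomes 1 to 22 and X. They made up 0.463% of the peaks on these chromosomes in 0.112% of their span. Windows of the same widths held 8.39 peaks in total on average over all chromosomes and 9.13 on the loci's own chromosomes, so the observed total was 4.17 and 3.83 times as large. ETS2 contributed 10 peaks, or 28.6% of them. Without ETS2, the other 9 loci held 25 peaks at 8.56 per Mb, which was 3.31 times the mean of 7.56 for their widths.

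Peak number differed widely among the loci. ETS2 held 10 peaks, PROM1 5, OLFM4 and LRIG1 4 each, ASCL2 and EPHB2 3 each, SOX9 and CD44 2 each, and SMOC2 and EPHB3 1 each. Per Mb, ETS2 was highest at 31.2, followed by OLFM4 at 17.4, PROM1 at 15.6, ASCL2 at 15.0 and LRIG1 at 12.5. EPHB2 had 7.32 per Mb, CD44 6.90, EPHB3 4.55 and SOX9 4.0. SMOC2, at 2.33 per Mb, was the 1 locus below the 2.61 per Mb of the whole list. Counts this small leave the order of neighbouring loci unresolved, in particular among those with 1 or 2 peaks.

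Set beside windows of their own width, the loci ranged from a count that few windows reached, at ETS2, to one near the middle, at SMOC2. At least 10 peaks were found in 0.146% of windows as wide as that of ETS2, and the fullest such window held 17. At least 5 were found in 2.77% of windows for PROM1, at least 4 in 3.08% for OLFM4 and in 5.34% for LRIG1, and at least 3 in 5.15% for ASCL2. EPHB2 reached a count seen in 14.0% of windows, CD44 in 18.0%, SOX9 in 31.2%, EPHB3 in 32.3% and SMOC2 in 49.3%. On the own chromosome of each locus, these shares were 0.347% for ETS2, 3.09% for PROM1, 3.17% for OLFM4, 5.11% for LRIG1 and 6.29% for ASCL2. The low shares depended in part on low-scoring peaks and on the window edges. Among peaks at or above the median −log10 p of the list, ASCL2 and OLFM4 each had 1 peak, a count reached in 18.7% and 20.9% of windows, and EPHB2 had 2, reached in 12.5%. PROM1 then had 4 peaks (1.23%), LRIG1 3 (3.26%) and ETS2 8 (0.0401%). In the middle part of the windows, ASCL2 had 0 peaks and PROM1 had 1, reached in 25.7% of windows. ETS2 had 4 of its 10 peaks there, and its share rose from 0.146% to 1.61%. LRIG1 kept 4 peaks (1.61%) and OLFM4 had 3 (2.20%), shares lower than in the full windows. Overlapping windows share peaks, so the shares give a rank and are not p-values.

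**Figure D1:**
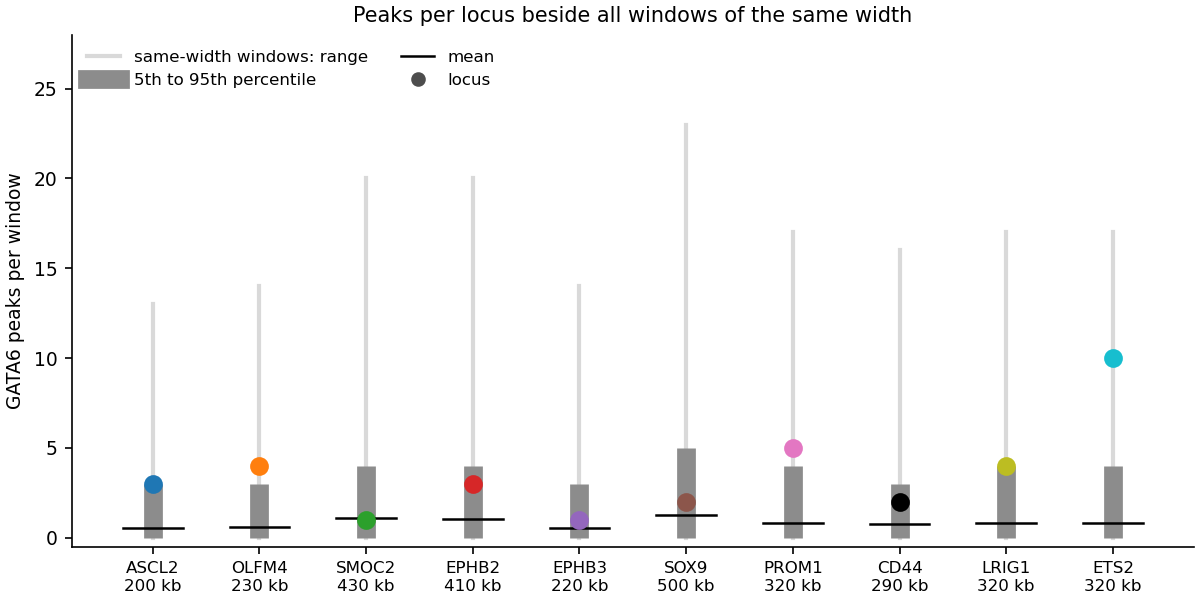
GATA6 peaks per window (vertical axis) for each locus (coloured points, with window width in kb below), beside all windows of the same width on chromosomes 1 to 22 and X (thin grey line, full range; thick bar, 5th to 95th percentile; black line, mean). ETS2, PROM1 and OLFM4 lie above the 95th percentile, whereas SMOC2, with 1 peak, lies just below the mean of 1.11.

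Among the transcription factor genes, ETS2 had the richest window, on chromosome 21 from 40.08 to 40.40 Mb. The 10 heights, in order along the window, were 18, 20, 22, 22, 34, 31, 66, 16, 42 and 9 fragments, where height is the deposited number of fragments over the summit. The peaks fell into 4 sets. The first peak stood alone at chr21:40107553-40107756. A trio of even height (20, 22 and 22) followed at chr21:40159553-40166410, with 6.64 kb between its outer summits. A pair at chr21:40290883-40294277 had heights of 34 and 31, folds over the local background of 31.41 and 31.07, and summits 3.06 kb apart. The last 4 peaks, at chr21:40322450-40331261, lay within 8.30 kb from first to last summit. In the RefSeq gene order on GRCh38, the coding genes next to ETS2 are ERG and PSMG1, and nothing here assigns a peak to any of the 3.

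The highest peak of the whole set was in that last ETS2 group, at chr21:40322450-40323101. It had 66 fragments (95% Poisson interval 51.0 to 84.0), a width of 652 bp and a −log10 q of 58.54, and 0.582% of all peaks were at least as high. Its fold, 22.05, was reached by 19.9% of peaks, since its local background was 2.99 fragments. The peak at chr21:40328826-40329198 had 42 fragments (30.3 to 56.8) but a higher fold of 42.10 over a background of 0.998. The intervals of these heights overlap, and their difference was not tested. The order by fold is the reverse of that by height. The lowest peak of the set lay in the same group, at chr21:40331079-40331261, with 9 fragments (4.12 to 17.1) and a fold of 7.36.

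The local background, derived as height over fold, was higher at ETS2 than in the whole list by its median, though not at ETS2 alone. Its median over the 10 ETS2 peaks was 1.61 fragments, against 0.998 over the 55 other peaks of chromosome 21. It was 1.75 over the 5 peaks of PROM1 and 2.99 at the 1 peak of EPHB3. The error of these differences was not estimated. At or below the median of all peaks, 1.05, were 2 of the 10 ETS2 peaks, against 38 of those 55 (69.1%). Among peaks at or below that background alone, ETS2 was left with 2, and at least as many were in 8.86% of windows of its width in place of 0.146%. PROM1 and LRIG1 were also left with 2 each, and their shares rose from 2.77% and 5.34% to 8.86%. ASCL2 kept 2 peaks (4.62%) and OLFM4 3 (1.41%), shares lower than with all peaks. Whether a higher local background adds to the count at ETS2 or at the other loci was not tested.

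ASCL2, the stem cell factor, had 3 peaks in its window on chromosome 11 from 2.19 to 2.39 Mb, with heights of 10, 39 and 13 fragments. All 3 lay within 8.83 kb, between 57.4 and 66.3 kb before the centre of the window, and the rest of the window was empty. The middle peak, at chr11:2224369-2224786, had 39 fragments (27.7 to 53.3) over the lowest background of the list, 0.489. That gave a fold of 79.70, the largest of the 35 peaks and one reached by 0.278% of all peaks, with a −log10 q of 55.22. The first peak, at chr11:2223654-2223865, had its summit 849 bp away with 10 fragments (4.80 to 18.4) and a fold of 10.02. The third, at chr11:2232417-2232591, had 13 fragments (6.92 to 22.2) and a fold of 6.52. The interval of the tall peak overlapped neither of the others. The coding genes next to ASCL2 in RefSeq order are TH and C11orf21.

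SOX9, a regulator of progenitor and Paneth cells, was in the widest window, on chromosome 17 from 69.90 to 70.40 Mb, and had 2 peaks of 18 and 11 fragments. They lay at chr17:69970151-69970500 and chr17:70075644-70075848, 105 kb apart and both before the centre. Their folds were 17.18 and 11.03, and their intervals of 10.7 to 28.4 and 5.49 to 19.7 overlapped. A further peak lay 9.60 kb past the end of the window and does not count among the members. At least 2 peaks were in 38.9% of windows of this width on chromosome 17, so the count at SOX9 was near what that chromosome holds elsewhere.

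The secreted markers differed from each other. OLFM4 had 4 peaks on chromosome 13 from 53.50 to 53.73 Mb, with heights of 14, 47, 10 and 13 fragments. The first 3 lay within 7.12 kb at chr13:53582189-53589609, between 25.5 and 32.7 kb before the centre. The tall one, at chr13:53584701-53585084, had 47 fragments (34.5 to 62.5), a fold of 47.11 and a −log10 q of 56.23. Its interval lay above those of the other 3 peaks at OLFM4. The fourth peak stood alone, 102 kb farther on at chr13:53691375-53691564, with a fold of 6.52. After the OLFM4 window, the next peak of chromosome 13 was 3373 kb away, and before it the nearest was 116 kb away.

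SMOC2 had 1 peak in its window on chromosome 6 from 168.74 to 169.17 Mb. It lay at chr6:168998127-168998396, 43.2 kb past the centre, with 12 fragments (6.20 to 21.0), fewer than the median of 16 in the list. Its background was 0.489 and its fold was therefore 24.52, reached by 15.4% of peaks. The nearest other summit was 561 kb away.

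The Eph receptor genes also differed. EPHB2 had 3 peaks on chromosome 1 from 22.93 to 23.34 Mb, with heights of 11, 49 and 17 fragments. They were all before the centre, at distances of 91.2 to 128 kb from it, and were 21.6 and 14.8 kb apart. The middle peak, at chr1:23028731-23029313, was 583 bp wide, with 49 fragments (36.3 to 64.8), a fold of 46.78 and a −log10 q of 58.53. Its interval lay above those of the flanking peaks at chr1:23007249-23007545 (5.49 to 19.7) and chr1:23043679-23043921 (9.90 to 27.2). The longest stretch of the EPHB2 window without a summit, 296 kb, ran from the last peak to the end of the window.

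EPHB3 had a single peak on chromosome 3 from 184.18 to 184.40 Mb, at chr3:184277119-184277380 and 12.8 kb before the centre. Its height was 21 fragments (13.0 to 32.1), above the median of the list. Its background of 2.99 was as high as at the tallest ETS2 peak and left a fold of 7.02, which 91.8% of all peaks reached. With a fold of at least 10 required, EPHB3 was the locus that had no peak. Its interval and that of the tallest EPHB2 peak did not overlap.

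Of the remaining membrane proteins, PROM1 (CD133, a glycoprotein of membrane protrusions) had 5 peaks on chromosome 4 from 15.87 to 16.19 Mb. Their heights were 17, 19, 29, 20 and 17 fragments, and their 95% intervals all overlapped. The first peak lay at chr4:15955371-15955564, 176 kb from the next, and the other 4 were 101 to 115 kb past the centre. The last 3 formed a group at chr4:16142273-16144867, in which the summits of the first pair were 335 bp apart. The highest of them, at chr4:16142273-16142538, had 29 fragments (19.4 to 41.6) and a fold of 14.53. The largest fold at PROM1, 19.47, was at its isolated first peak. With summits within 1 kb joined, PROM1 had 4 peaks and ASCL2 had 2. The coding genes next to PROM1 in RefSeq order are FGFBP2 and TAPT1.

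LRIG1, which encodes an inhibitor of epidermal growth factor receptor signalling, had 4 peaks on chromosome 3 from 66.33 to 66.65 Mb, with heights of 14, 19, 15 and 16 fragments. It was the most even locus with more than 2 peaks, and all 4 intervals overlapped. The summits were 8.75, 11.4 and 5.09 kb apart and lay 33.0 to 58.2 kb past the centre. Folds ran from 12.27 to 19.05, and the highest peak was at chr3:66531592-66531877 (11.4 to 29.7). The next peak after the window was 42.6 kb away.

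CD44, the receptor for hyaluronan, had 2 peaks on chromosome 11 from 35.06 to 35.35 Mb, with heights of 10 and 35 fragments. The taller, at chr11:35194677-35194951, lay 10.2 kb before the centre and had an interval of 24.4 to 48.7, a fold of 20.05 and a −log10 q of 29.06. The other, at chr11:35161209-35161400, was 33.5 kb away with a fold of 10.61 and an interval of 4.80 to 18.4, which did not overlap. In windows extended by 50 kb at each side, CD44 had 4 peaks, SOX9 3 and LRIG1 5, and the other loci kept their counts. The coding genes next to CD44 in RefSeq order are PDHX and SLC1A2.

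**Figure D2:**
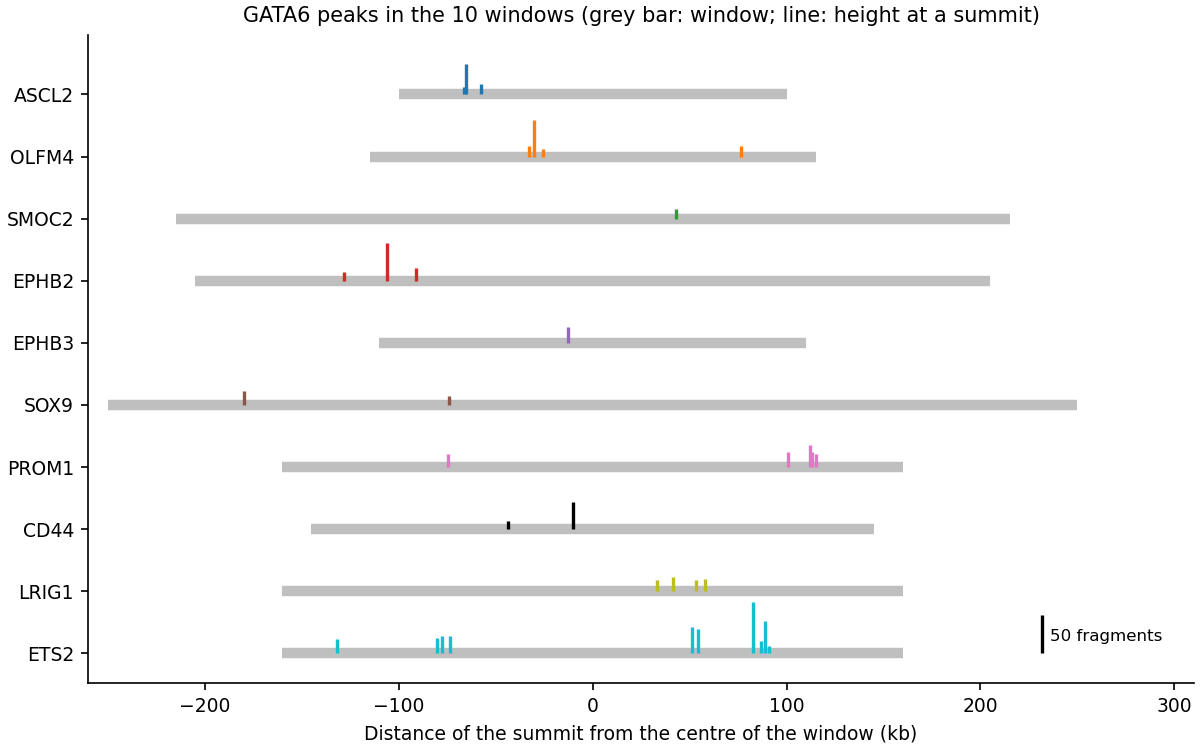
Position of each GATA6 summit as distance from the centre of its window in kb (horizontal axis), for the 10 loci (rows). Grey bars are the windows and the length of each vertical line is the height in fragments, with a scale bar of 50 fragments. All peaks of ASCL2 and LRIG1, and some of those of OLFM4, PROM1 and ETS2, have another summit within 10 kb. Those of SOX9, CD44 and EPHB2 are at least 14.8 kb apart.

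Groups of neighbouring peaks were frequent in the set. Of the 35 peaks, 22 (62.9%) had another summit within 10 kb, against 2058 of all 7562 peaks on chromosomes 1 to 22 and X (27.2%). These 22 lay at 5 loci and formed 8 groups. ETS2 had 9 of them, LRIG1 4, and ASCL2, OLFM4 and PROM1 3 each. Without ETS2 the share was 52.0%, or 13 of 25. Peaks within 1 kb of another were 4 of 35 (11.4%), against 7.29% outside. Groups of at least 3 peaks numbered 177 in the whole list, and 5 of those were in these windows. A window with more peaks holds closer neighbours by construction, so the share repeats in part what the counts show.

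**Figure D3:**
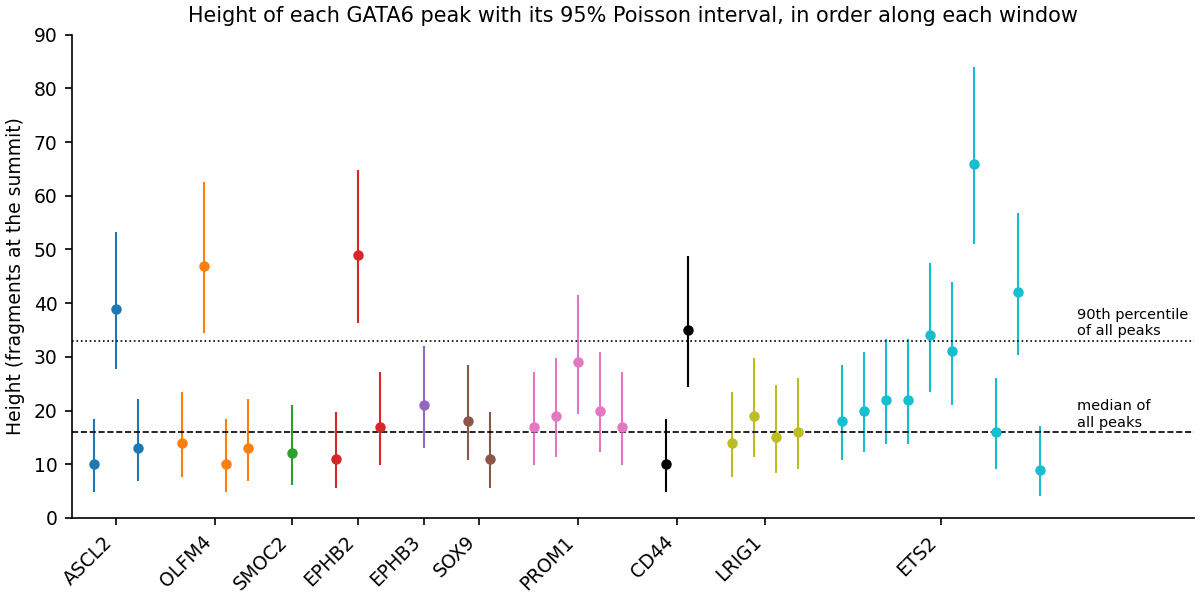
Height of each of the 35 peaks in fragments at the summit (vertical axis), in order along each window and grouped by locus. Points are the deposited heights and bars their 95% Poisson intervals, with the median (16) and 90th percentile (33) of all peaks as lines. ASCL2, OLFM4, EPHB2 and CD44 each have a single peak above 33, while the peaks of PROM1 and LRIG1 stay below it.

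In height the set differed little from the rest of the list at its centre and more at its upper end, though less so without ETS2. The median height was 18 fragments, with a range of 9 to 66, against 16 outside the windows. The error of this difference was not estimated. The median fold was 13.91 against 14.03, the median width 265 bp against 251 bp, and the median −log10 p 14.23 against 12.92. The median background was 1.08 against 1.05. At least 30 fragments were reached by 8 of the 35 peaks (22.9%), 4 of which were at ETS2, against 13.3% of the others. By −log10 p, 7 of the 35 (20.0%) were in the top 10% of the list. Without ETS2 this was 3 of 25 (12.0%), namely the tallest peaks of ASCL2, OLFM4 and EPHB2.

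A single peak well above its neighbours was a shared feature of ASCL2, OLFM4, EPHB2 and CD44. At each of these loci the 95% interval of the tallest peak overlapped that of no other peak of the window. At CD44 this rests on 2 peaks. How often other windows show such a pattern was not counted, and the shares that follow concern only the height of the tallest peak. A peak at least as high as the tallest was in 2.92% of windows as wide as that of ASCL2, 1.72% for OLFM4, 2.66% for EPHB2 and 5.85% for CD44. For ETS2 it was 0.476% and for PROM1 9.88%. The shares were 13.3% for EPHB3, 21.1% for LRIG1, 31.7% for SOX9 and 42.0% for SMOC2. PROM1 and LRIG1 had 5 and 4 peaks of at most 29 and 19 fragments. EPHB2 and CD44 had 3 and 2 peaks, with a tall one of 49 and 35 fragments among them.

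Height and fold ranked the loci differently, and the local background of the tallest peaks ran from 0.489 to 2.99 fragments. By height the tallest peaks came in the order ETS2 (66), EPHB2 (49), OLFM4 (47), ASCL2 (39), CD44 (35), PROM1 (29), EPHB3 (21), LRIG1 (19), SOX9 (18) and SMOC2 (12). The intervals of neighbours in this order overlapped throughout. By the largest fold at each locus, ASCL2 led with 79.70, followed by OLFM4 (47.11), EPHB2 (46.78), ETS2 (42.10), SMOC2 (24.52), CD44 (20.05), PROM1 (19.47), LRIG1 (19.05), SOX9 (17.18) and EPHB3 (7.02). These folds have no interval, and those of ASCL2 and SMOC2 rest on the lowest background of the list, 0.489 fragments. SMOC2, lowest in height, came before 5 other loci in fold, and ETS2 came after ASCL2, OLFM4 and EPHB2. At ETS2 and PROM1 the largest fold was not that of the tallest peak. The tallest peaks there had folds of 22.05 and 14.53, so the ranks of these loci compare different peaks.

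**Figure D4:**
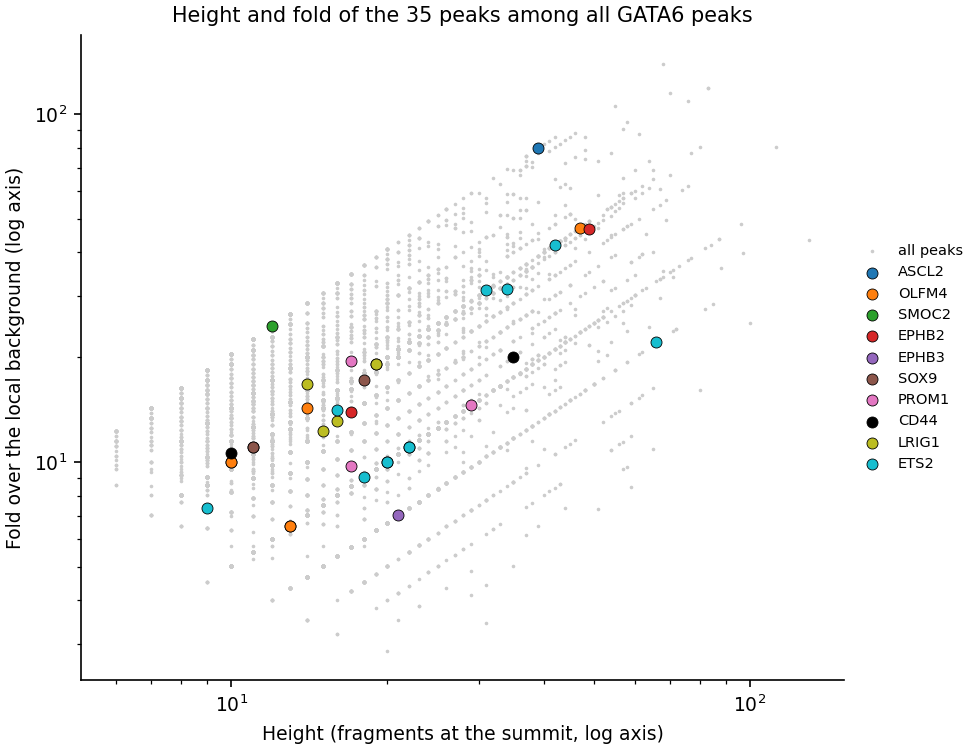
Height in fragments (horizontal log axis) against fold over the local background (vertical log axis) for all GATA6 peaks on chromosomes 1 to 22 and X (grey) and the 35 peaks of the 10 loci (coloured; peaks with equal values overlie each other). Diagonal bands are peaks of equal background. The ASCL2 peak at a fold of 79.70 lies on the uppermost band, and the ETS2 peak of 66 fragments and the EPHB3 peak lie on lower ones.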

How the data were processed

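GATA6 ChIP-seq in LS174T cells was represented by 1 deposited peak list. The submitters' processing notes name CASAVA 1.8, BWA 0.5.9-r16 and the hg19 build. For the peak caller, the control and any pooling of the 3 libraries, the answer is not given in the sources used here. Per the file headers, the authors deposited a pileup signal (the height), a fold enrichment ratio, and −log10 values of p and q for each peak. These scores are the authors' own.

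Windows were applied to summits on chromosomes 1 to 22 and X (7562 peaks). The local background was computed as height over fold. All windows of equal width were enumerated every 10 kb from the first summit of a chromosome to its last, which replaces a random draw and gives shares, not p-values. Window counting was tested on simulated data. Each height has an exact 95% Poisson interval, computed from the deposited count alone, which reflects counting error only. It makes no allowance for PCR copies of a fragment, which cannot be told apart without molecular identifiers. Alternatives changed the score threshold, the background, the joining of summits, the window edges and the compared windows. Peak motifs and gene annotation, planned in case hg19 was supplied, were not run; promoters were searched instead. All 10 loci are named, and within each the highest peak, the largest fold and the closest summits. The loci and windows were chosen with earlier results of these data known. Python 3.11.15, pandas 2.3.3 and SciPy 1.17.1 were used.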

Additional observations from a re-analysis of the deposited data

How the results depend on the processing

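The total over the 10 windows, 4.17 times the mean of same-width windows, ran from 3.31 (without ETS2) to 5.24 (better-scoring part of the list) over the alternatives for which it was computed. The total itself fell where peaks were removed from the whole list or window length was cut. The better-scoring part of the list left 22 peaks (6.79 per Mb), and peaks with a background at or below the median left 15 (4.63 per Mb). The middle part of every window left 18 peaks. In each of these, 9 of 10 windows held a peak, with EPHB3 empty under the first pair and ASCL2 under the last. The median over loci of the share of same-width windows with at least as many peaks was 9.69%. It became 19.8%, 17.9% and 22.5% under these settings, and 23.2% when only windows with a peak were compared; fewer peaks or fewer windows counted by construction. No paired analysis was possible because the list has no value per library, and for the same reason no library could be left out.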
